A study of Mus musculus with 20 samples.

Results

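Upk3b, Upk1b, Msln, Wt1, Lrrn4 and Krt19 are 6 genes of the mesothelium and the epicardium, and they were taken by name from the 29339 genes of the deposited table. They were chosen by measured values, namely their covariation with Myl7 and Adipoq over the 20 libraries, so that covariation is given below as a description with no test. Heart RNA of C57BL/6 mice aged 8 weeks was sequenced, with 5 libraries labelled male WT, 5 labelled male KO (Tecrl -/-), 3 labelled female WT and 7 labelled female KO (Tecrl -/-). The labels give heart as the tissue and name no chamber. The library names form an S series (S1 to S12) and a WT/TKO series (library WT1, library WT2 and TKO1 to TKO6), and the WT/TKO series has no library labelled female WT. How the Tecrl allele was made is not given in the sources used here.

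The mesothelium is the flat epithelium that lines the body cavities, and the epicardium is the part of it that covers the heart. Mesothelial cells keep keratins of simple epithelia and carry uroplakins and mesothelin on their free surface. The epicardium also covers the atria and the fat that lies on the heart. In bulk RNA, fewer cells of this lining and less RNA per cell cannot be told apart.

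Several libraries went against their labels. S7, S8 and S9, labelled male WT, had 250.02 to 319.78 CPM (counts scaled to library size with edgeR's TMM method) of Xist, the RNA that silences one X chromosome in females, and 0 CPM of 4 Y-linked genes summed. S4, S5 and S6, labelled female KO, had 182 to 203 CPM of the Y-linked sum and at most 0.255 CPM of Xist. Tecrl, the targeted gene, had a log2 fold change of 0.02 between the labels of the male libraries (adjusted p = 0.992, edgeR) and 0.22 between those of the female libraries (adjusted p = 0.400, edgeR). WT and KO below are therefore the labels of libraries, and each comparison is given with and without the 6 libraries that go against their labelled sex. Total counts ran from 12540002 to 20038593.

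The genes lie on 5 chromosomes of GRCm38 and none of them overlaps another gene of GENCODE M21. Upk3b (uroplakin 3b, a membrane protein of the mesothelial surface) lies on chromosome 5 from 136038496 to 136046487 on the plus strand, and Upk1b (uroplakin 1b, a tetraspanin) on chromosome 16 from 38773184 to 38800328 on the minus strand. Msln (mesothelin, a surface glycoprotein) lies on chromosome 17 from 25748613 to 25754378 and Krt19 (keratin 19, an intermediate filament protein of simple epithelia) on chromosome 11 from 100140810 to 100148665, both on the minus strand. Chromosome 2 holds Wt1, the gene of a zinc finger transcription factor of the epicardium, from 105126529 to 105173616 on the plus strand, and Lrrn4, the gene of a membrane protein with leucine-rich repeats, from 132868305 to 132880891 on the minus strand. All are protein coding. The merged exon length equals the length behind the deposited FPKM in 5 of them, while for Msln the annotation gives 3064 bases and the FPKM of the authors imply 2114.

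Promoters of 2 members, Upk3b and Lrrn4, are in the RefSeq table for GRCm38.p6, and they are shown because the table holds a promoter for these members. Each line gives the 250 bases before the RefSeq start of the gene, 5′ to 3′ on its own strand, and capitals mark the letters GGAATG or their reverse complement CATTCC, the motif that TEAD factors bind. For Upk3b the RefSeq start is also that of GENCODE M21, while for Lrrn4 it lies 29 bases inside the GENCODE gene, so the last 29 bases of that line belong to it.
Upk3b, chr5:136038246-136038495, plus strand: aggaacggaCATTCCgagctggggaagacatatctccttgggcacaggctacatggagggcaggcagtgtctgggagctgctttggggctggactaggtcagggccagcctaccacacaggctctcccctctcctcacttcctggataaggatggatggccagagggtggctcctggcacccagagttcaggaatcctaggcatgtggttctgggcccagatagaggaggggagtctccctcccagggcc
Lrrn4, chr2:132880863-132881112, minus strand: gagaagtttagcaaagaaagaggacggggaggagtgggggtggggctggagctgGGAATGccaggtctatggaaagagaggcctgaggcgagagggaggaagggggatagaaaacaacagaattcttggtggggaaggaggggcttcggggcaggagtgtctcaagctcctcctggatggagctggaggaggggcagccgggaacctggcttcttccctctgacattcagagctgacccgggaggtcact

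The TEAD letters begin at base -241 from the RefSeq start of Upk3b and at base -196 from that of Lrrn4. They were found on either strand in 12.6% of the 32851 promoters of this length, and the Myl7 promoter also holds them, at base -70 from its RefSeq start. Neither member's window holds GCGGGGGCG (2.57% of promoters), a sequence that WT1 and EGR factors bind, or AGATAA (9.99% of promoters), a GATA sequence, on either strand. These are matches of letters in a window and not binding sites.

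Upk3b was high in 3 of the 20 libraries. Among the libraries labelled male WT it had 0.439 CPM in library WT1, 1.75 in library WT2, 197 in S7, 5.08 in S8 and 23.6 in S9. Those labelled male KO had 3.25 CPM in S10, 40.1 in S11, 5.74 in S12, 1.41 in TKO5 and 0.725 in TKO6. The female WT libraries had 6.05 CPM in S1, 3.64 in S2 and 4.24 in S3, and the 7 female KO libraries ran from 1.29 (S6) over a median of 4.84 to 6.69 CPM (TKO1). S7, S11 and S9 thus lay above every other library, and S11 is labelled KO while S7 and S9 are labelled WT.

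Msln, Upk1b, Lrrn4 and Krt19 had the same 3 libraries on top, in the same order. Msln had 67.5 CPM in S7, 48.3 in S11 and 16.9 in S9, against 0.242 to 6.76 CPM in the other 17 libraries. Upk1b had 33.9, 8.12 and 6.04 CPM in S7, S11 and S9, and at most 2.08 CPM elsewhere. Lrrn4 reached 33.3 CPM in S7, 5.39 in S11 and 2.84 in S9, and at most 1.24 CPM elsewhere. Krt19 was nearly as high in S11 (12.4 CPM) as in S7 (16.7 CPM), with 4.53 CPM in S9 and at most 1.55 CPM elsewhere. S7, S9 and S11 held 80.7% of the summed CPM of Upk3b, 77.6% of Upk1b, 69.3% of Msln, 83.5% of Lrrn4 and 77.4% of Krt19. Outside these libraries the counts were small: Lrrn4 had 3 or fewer counts in 5 of the 20 libraries, Krt19 in 3, Upk1b in 2 and Msln in 1. A count of 0, as for Lrrn4 in library WT1 and S6, allows up to 3 counts in that library, and covers counting error only.

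Wt1 had other libraries on top. It had 8.60 CPM in library WT1, 15.5 in library WT2, 27.2 in S7, 17.02 in S8 and 15.1 in S9, all labelled male WT. Among the libraries labelled male KO it ran from 7.18 CPM in S12 to 18.8 in TKO6, with 12.9 in S11. The highest values were 43.6 CPM in TKO1 and 34.0 in TKO2, labelled female KO, and 30.2 in S2, labelled female WT. S9 ranked 10 and S11 ranked 14 of 20 for Wt1, while S7 ranked 4, and the 3 libraries together held 16.1% of its summed CPM. Wt1 was counted in every library, with 91 to 593 counts.

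**Figure D1:**
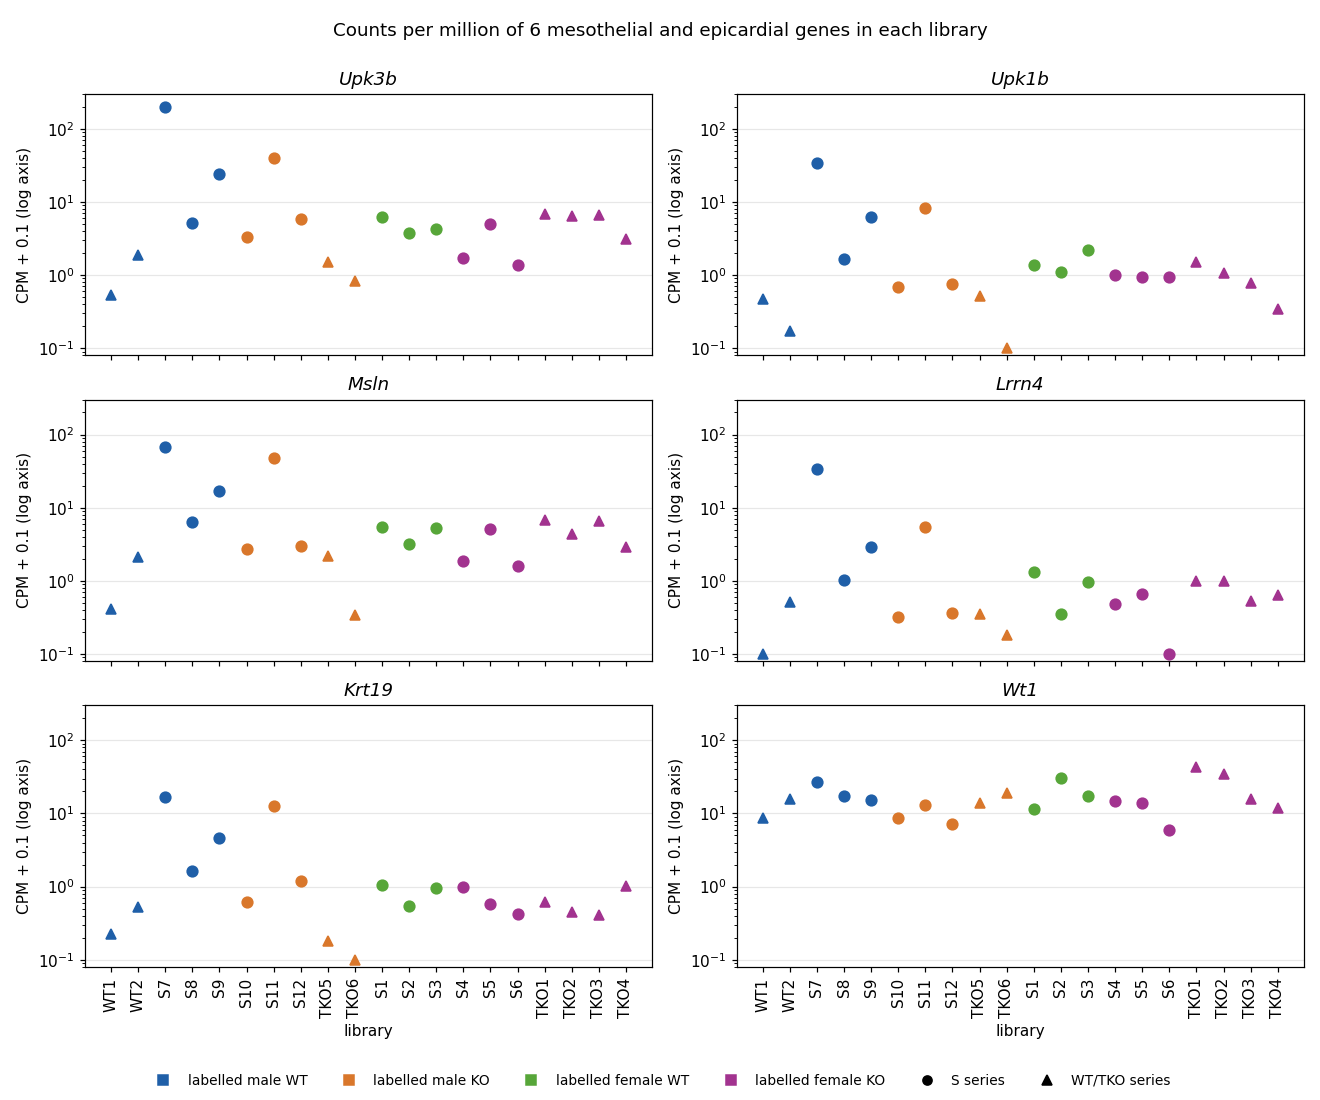
CPM of each gene (vertical axis, logarithmic, with 0.1 added so that a value of 0 can be drawn) in each of the 20 libraries (horizontal axis), coloured by labelled group, with circles for the S series and triangles for the WT/TKO series. S7, S11 and S9 stand above the rest for Upk3b, Upk1b, Msln, Lrrn4 and Krt19, and for Wt1 the highest library is TKO1 at 43.6 CPM.

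Levels of different genes can be compared only per length, as in the FPKM of the authors (fragments scaled by gene length and library total). The median FPKM over the 20 libraries was 2.46 for Wt1, 1.71 for Msln, 1.30 for Upk3b, 0.419 for Upk1b, 0.270 for Krt19 and 0.134 for Lrrn4, with ranges that overlap between all neighbours in this order. In S7 the order was different. Upk3b was at 62.4 FPKM there, Msln at 35.7, Upk1b at 18.1, Krt19 at 10.1, Lrrn4 at 10.02 and Wt1 at 4.90, so the gene with the highest median level was the lowest of the 6 in S7. Values of Msln depend on the length used.

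The 3 high libraries were not alike in their mix of members. Of the summed counts of Upk3b and Msln, Upk3b had 74.5% in S7 (95% exact Clopper-Pearson interval 73.1% to 75.8%, 2939 and 1007 counts). Its share was 58.3% in S9 (54.4% to 62.0%, 391 and 280 counts) and 45.4% in S11 (42.6% to 48.2%, 558 and 672 counts). The intervals do not overlap, and they cover counting error only. Over the rest of the libraries the share ran from 40.5% in TKO5 (25.6% to 56.7%) to 75.0% in TKO6 (42.8% to 94.5%), with wide intervals.

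Over the 20 libraries, Upk3b, Upk1b, Msln, Lrrn4 and Krt19 varied together, which is given as a description with no p since each pair shares the same libraries and depth. Pearson's r of log2 CPM (prior count 2) ran from 0.86 to 0.96 over the 10 pairs, and Spearman's rho from 0.66 to 0.95. The highest pair was Upk3b with Msln (r = 0.96, rho = 0.95), the surface proteins of mesothelial cells, followed by Upk3b with Lrrn4 (r = 0.95, rho = 0.86). Within the S series the 10 values of r ran from 0.93 to 0.97, and within the 8 libraries of the WT/TKO series from 0.41 to 0.95. With S7, S9 and S11 left out, a choice made after the data were seen, they ran from 0.50 to 0.93, and Upk3b with Msln was at 0.93. Wt1 had an r of 0.10 to 0.43 with the other 5 and a rho of -0.07 to 0.38. Within a series its r with them was 0.37 to 0.55 in the S series and 0.21 (Krt19) to 0.71 (Lrrn4) in the WT/TKO series, and was -0.06 to 0.53 without S7, S9 and S11.

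**Figure D2:**
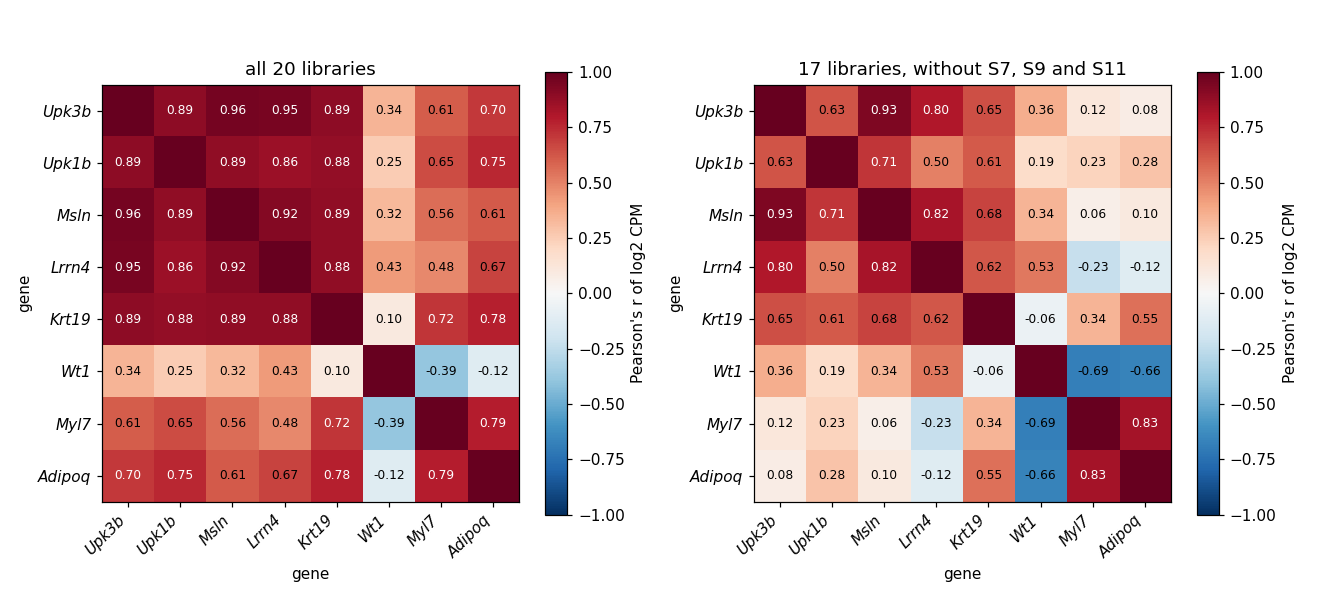
Pearson's r of log2 CPM for each pair of genes over all 20 libraries (left) and over 17 libraries without S7, S9 and S11 (right), with genes on both axes and colour for r. Upk3b, Upk1b, Msln, Lrrn4 and Krt19 form a block of 0.86 to 0.96 on the left and 0.50 to 0.93 on the right, while Wt1 with Myl7 is at -0.39 on the left and -0.69 on the right.

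Myl7, the regulatory light chain of atrial myosin, and Adipoq, the adipocyte hormone adiponectin, mark other tissue that a heart sample can hold. Myl7 was at 2333 CPM in S11, 1573 in S7 and 1481 in S9, followed by 684 in S12, 184 in S10, 137 in S6 and 77.9 in S5, and was at most 5.10 CPM elsewhere. The 3 libraries highest in Myl7 were thus the 3 highest in Upk3b, Upk1b, Msln, Lrrn4 and Krt19. Adipoq was at 111 CPM in S7, 2.78 in S9, 1.85 in S10, 1.30 in S12 and 1.15 in S11, and at most 1.09 CPM elsewhere.

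To describe the 6 genes by 1 value, log2 CPM was standardised for each gene over the 20 libraries and averaged, which gives a member mean in SD units. Its r was 0.51 with Myl7 (jackknife SE 0.212, rho = 0.33) and 0.66 with Adipoq (jackknife SE 0.349, rho = 0.28). By member, r with Myl7 was 0.72 for Krt19, 0.65 for Upk1b, 0.61 for Upk3b, 0.56 for Msln, 0.48 for Lrrn4 and -0.39 for Wt1. With Adipoq it was 0.78 for Krt19, 0.75 for Upk1b, 0.70 for Upk3b, 0.67 for Lrrn4, 0.61 for Msln and -0.12 for Wt1. Both relations rest on few libraries. Without the 2 libraries farthest from the median of the marker (S7 and S11 for Myl7, S7 and S9 for Adipoq), r of the member mean was 0.16 with Myl7 and 0.15 with Adipoq. Without S7, S9 and S11 it was -0.14 and -0.06. Within the S series it was 0.42 with Myl7 and 0.66 with Adipoq, and within the WT/TKO series, where Myl7 was at most 1.19 CPM and Adipoq at most 0.424 CPM, it was -0.14 and 0.00489.

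Some libraries with Myl7 had no high member mean. S12, with 684 CPM of Myl7, ranked 14 of 20 by member mean (-0.35), S10 ranked 15 (-0.49) and S6 ranked 18 (-0.93). The rank of S12 came with a rank of 19 for Wt1, while it ranked 5 for Krt19, 8 for Upk3b, 12 for Msln and 14 for Upk1b and Lrrn4, and without Wt1 its member mean was -0.14 (rank 11), with S10 at -0.37 and S6 at -0.75. TKO1 and S8 ranked 4 and 5 by member mean (0.49 and 0.29) with 0.367 and 0.743 CPM of Myl7. In TKO1 the high rank came with the highest Wt1 of all libraries, and its member mean without Wt1 was 0.17. Without S7, S9 and S11, Krt19 had the highest r with Myl7 of the 6 members (r = 0.34, rho = 0.52) and Wt1 the lowest (r = -0.69, rho = -0.72).

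**Figure D3:**
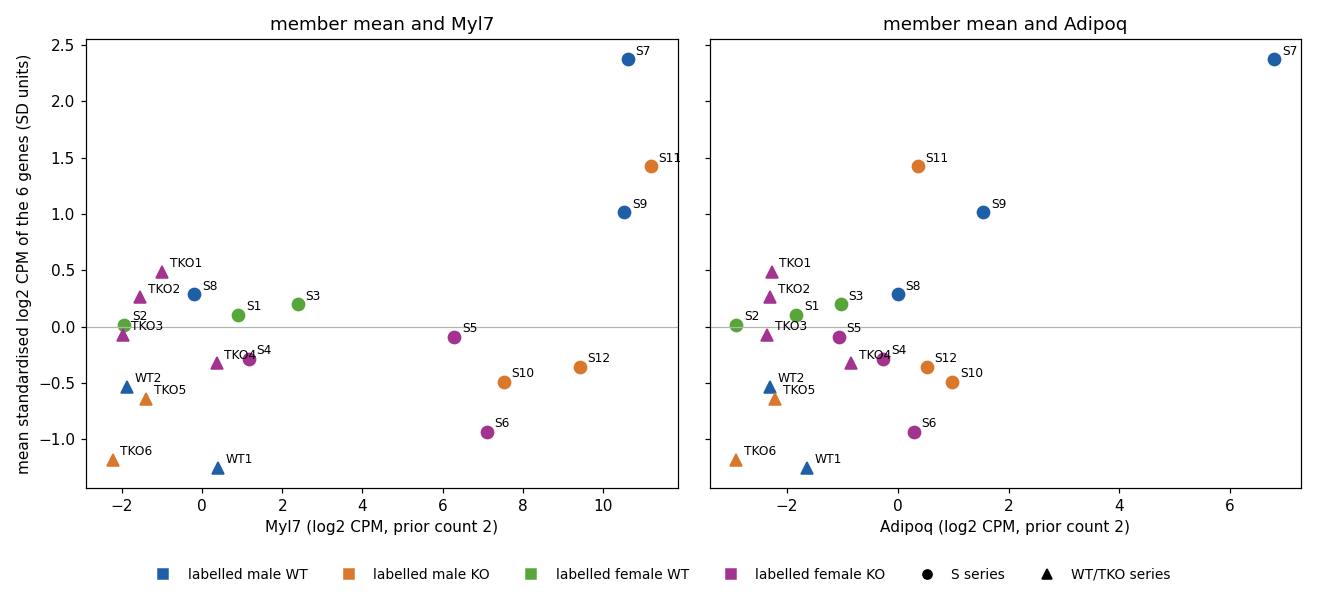
Mean standardised log2 CPM of the 6 genes (vertical axis, SD units) against log2 CPM of Myl7 (left) and of Adipoq (right), 1 point per library with its name, coloured by labelled group and shaped by series. S7, S11 and S9 lie at the top, at 2.37, 1.42 and 1.01, while S12, S10 and S6 have Myl7 and lie below 0.

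KO and WT were compared within each labelled sex, the question the study's design poses, with library series as covariate. The thresholds of the study's methods were used to call a gene: p below 0.05 without adjustment, together with a log2 fold change of 0.58 or more in either direction. In the libraries labelled male, 0 of the 6 members were called by edgeR, where 2.09% of the 14481 genes tested were. An unadjusted p of 0.05 was passed by 0 members and by 4.75% of the genes. The log2 fold changes (KO minus WT) were -1.76 ± 1.05 (SE) for Upk3b, -1.90 ± 1.05 for Upk1b, -0.58 ± 0.94 for Msln, -2.38 ± 1.23 for Lrrn4, -0.86 ± 0.94 for Krt19 and -0.47 ± 0.32 for Wt1 (adjusted p from 0.882 to 0.920, edgeR, n = 5 and 5). The groups overlapped for all 6 members, where they did not overlap for 0.642% of the genes tested. S7 and S9 are in the WT group and S11 is in the KO group. In the same comparison all 7 adipocyte genes that passed the filter were called lower (median -4.09, Adipoq -4.65 ± 1.38, SE, adjusted p = 0.882 for each, edgeR). The sum of the whole adipocyte list was 1533 CPM in S7, while its median was 35.9 CPM in WT and 31.5 in KO. Of the atrial genes 0 of 7 were called (median -0.11, Myl7 -0.19 ± 1.28), and the part of adipocyte and atrial genes in the members' values was not tested. DESeq2 and limma on log2(FPKM + 1) also called 0 members, where they called 2.28% and 0.359% of the genes.

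The male values turned on single libraries. Without S7 the 6 log2 fold changes lay between -0.26 (Upk1b) and 0.45 (Msln). Leaving out S11 instead gave -2.97 for Upk3b, -3.66 for Upk1b, -2.30 for Msln, -4.55 for Lrrn4 and -3.12 for Krt19, and 4 of 6 members were called, where 2.02% of the genes tested were. With S8 left out 3 were called (2.89% of genes), and with library WT1 left out 1 was (1.67% of genes). Without S7, S8 and S9, which go against their labelled sex, 0 of 3 were called (1.53% of genes), since Upk1b, Lrrn4 and Krt19 did not pass the filter on low counts there. Upk3b was at -0.01 in that fit, Msln at 0.01 and Wt1 at 0.44. With the series in the model, only library WT1 and library WT2 against TKO5 and TKO6 inform these values. Within the S series alone, S10 to S12 against S7 to S9, 1 of 6 was called (2.68% of genes), namely Wt1 at -1.05 (27.2, 17.02 and 15.1 CPM in WT and 8.58, 12.9 and 7.18 CPM in KO). Those WT libraries are the ones with Xist and no Y-linked RNA, so labelled genotype and sex-linked RNA cannot be told apart there.

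In the libraries labelled female, 0 of the 6 members were called by edgeR, where 9.99% of the 14511 genes tested were. An unadjusted p of 0.05 was passed by 0 members and by 17.9% of the genes. The log2 fold changes were -0.87 ± 0.45 (SE) for Upk3b, -0.77 ± 0.50 for Upk1b, -0.73 ± 0.45 for Msln, -1.35 ± 0.76 for Lrrn4, -0.41 ± 0.54 for Krt19 and -0.79 ± 0.49 for Wt1 (adjusted p from 0.327 to 0.729, edgeR, n = 3 and 7). All 6 estimates were below 0, and the groups overlapped for all 6, where they did not overlap for 4.84% of the genes tested. DESeq2 and limma also called 0, where they called 9.90% and 3.62% of the genes. With the series in the model only the S libraries inform this difference (WT in S1, S2 and S3, KO in S4, S5 and S6), and among them Upk1b alone did not overlap (1.29, 1.02 and 2.08 CPM in WT and 0.894, 0.830 and 0.836 CPM in KO). That is 1 of 6 members, where 16.6% of 15187 genes did not overlap between these libraries, in either direction. In the same comparison 3 of 6 atrial genes were called higher, namely Myl7 (4.99 ± 1.12, SE), Myl4 (3.93 ± 0.86) and Sln (5.42 ± 1.12), as were 3 of 5 adipocyte genes, Cfd (2.72 ± 0.50), Car3 (1.98 ± 0.48) and Cidec (1.60 ± 0.59), opposite in sign to the members. Their adjusted p ran from 0.0767 (Cfd) to 0.213 (Cidec, edgeR). Adipoq did not pass the filter there, and the part of these genes was not tested. S4 to S6 are the libraries labelled female that carry Y-linked RNA, while S1 to S3 had Xist and at most 0.128 CPM of the Y-linked sum. Labelled genotype and sex-linked RNA therefore cannot be told apart in the 6 estimates of this comparison. Without S4 to S6, and then without the series term, 0 were called (15.1% of genes) and Upk3b (0.28), Msln (0.16) and Wt1 (0.42) turned sign, but WT is then S1 to S3 and KO is TKO1 to TKO4, so label and series cannot be told apart in these values. Leaving out S5 gave 2 called (8.60% of genes), and S1 or S2 gave 1 (20.6% and 8.51% of genes).

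A further pair of comparisons used all 20 libraries, and so share libraries with the above. For KO against WT, 0 of 6 members were called by edgeR, where 2.40% of the 15187 genes were, with log2 fold changes between -0.73 ± 0.99 (SE, Lrrn4) and 0.40 ± 0.85 (Msln). An unadjusted p of 0.05 was passed by 0 members and by 6.66% of the genes. For the genotype by labelled sex term (male difference minus female difference), 0 of 6 were called, where 11.3% of the genes were. Again 0 members passed an unadjusted p of 0.05, where 15.6% of the genes did. DESeq2 called 0 for KO against WT (2.49% of genes) and 1 for the term (12.1% of genes), and limma called 0 for both (0.303% and 5.84% of genes). All 6 estimates were below 0, from -3.60 ± 1.82 (SE, Upk3b, adjusted p = 0.339, edgeR) to -0.20 ± 0.63 (Wt1). These estimates are not the difference of the 2 fits by sex, since 1 series term is shared by all groups. For the term 8 of 8 adipocyte genes and 3 of 7 atrial genes were called lower, and for KO against WT 0 of 8 and, higher, 3 of 7. Of these, 0 had an adjusted p under 0.05 (edgeR). Without S11, 5 members were called for the term, where 11.6% of the genes were. Without the 6 libraries that go against their labelled sex, 3 members were called for KO against WT (3.76% of genes) and 1 for the term (4.13% of genes).

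The members were also compared between the library series. The rule that chose them used all 20 libraries, and Myl7 (log2 fold change -9.75) and Adipoq (-5.56) were themselves lower in the WT/TKO series, so the values of the members here are a description and nothing is read from their counts. Levels in the WT/TKO series were lower than in the S series for Krt19 (log2 fold change -2.89 ± 0.92, SE, edgeR) and Upk1b (-2.63 ± 0.96), which passed the study's thresholds. That is 2 of 6 members, where 8.22% of the 15187 genes were called lower, and at an adjusted p under 0.05 it is 1 of 6, where 14.7% of the genes passed in either direction. Krt19 had a median of 0.918 CPM in the S series (0.322 to 16.7) and 0.330 CPM in the WT/TKO series (0 to 0.908), and Upk1b had 1.16 CPM (0.591 to 33.9) and 0.396 CPM (0 to 1.40), so the ranges overlap. Upk3b (-2.28 ± 1.19), Lrrn4 (-2.22 ± 1.18) and Msln (-2.08 ± 1.03) were not called, nor was Wt1, at 0.54 ± 0.34. The count turned on the setting, since DESeq2 called 5 members lower (8.55% of genes), as did edgeR without S4 (8.76%), without S6 (7.96%), with no filter on low counts (6.68%) and with a Y-linked covariate (9.13%).

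S7, S9 and S11 are all of the S series. Without them Krt19 was at -1.34 and still called, Upk1b at -0.94 and not called, Lrrn4 at 0.01, and Wt1 at 0.79 and called, which is 2 of 6 where 10.1% of the genes were called. Without the 6 libraries that go against their labelled sex, 5 were called lower (7.01% of genes). The summed level of 7 atrial genes was 7626 CPM in S7, 6181 in S9 and 7442 in S11, and 25.1 to 2220 CPM in the other libraries, and its part in the series difference was not tested.

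**Figure D4:**
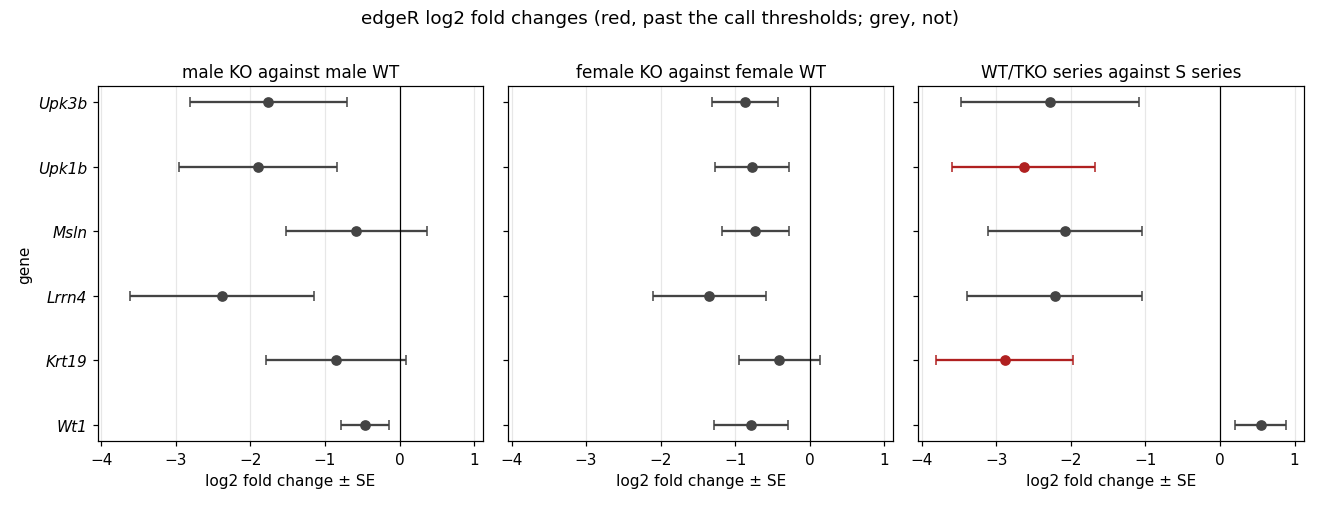
log2 fold changes with their SE (horizontal axis) of the 6 genes (vertical axis) for KO against WT in the libraries labelled male and female and for the WT/TKO series against the S series, with red for genes past the call thresholds. Krt19 (-2.89) and Upk1b (-2.63) are red in the series comparison, and 0 genes are red in the other panels.

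Other genes of the mesothelium and epicardium followed the same libraries in part. Of a list of 20, 19 were in the table, and for 12 of these S7, S9 and S11 all lay above the other 17 libraries. Some of them, such as Bnc1 (at most 0.496 CPM elsewhere), were hardly counted outside the 3 libraries. Of the 16 genes of the list that had 10 counts in 3 or more of the other 17 libraries, 10 had the 3 libraries on top, as did 3.55% of the 14888 genes that met the same condition, and 14 had an r over 0.5 with the member mean, as did 9.26%. This was not particular to the list. Without that condition, S7, S9 and S11 were all on top for 5 of 7 atrial and 0 of 9 adipocyte genes. An r over 0.5 was found for 6 of 7 atrial, 7 of 9 adipocyte and 17 of 19 mesothelial and epicardial genes. Gpm6a, a membrane glycoprotein found in mesothelium, was at 65.8 CPM in S7, 33.2 in S11 and 20.97 in S9 and at most 9.48 elsewhere (r = 0.93). Muc16, the mucin to which mesothelin binds, was at 24.7, 9.27 and 2.84 CPM there and at most 2.35 elsewhere (r = 0.93). Krt18 and Krt8, which pair as keratins of simple epithelia, had 13.6 and 8.92 CPM in S7 and 11.7 and 10.9 CPM in S11, against at most 2.30 and 1.14 CPM outside S7, S9 and S11. Not every gene of the list did so. Tbx18, a transcription factor of the epicardium, ranged only from 3.99 to 7.31 CPM over all libraries (r = 0.57). S7 (7.31 CPM) and S11 (7.19) lay narrowly above the other 17 libraries for it (at most 6.95), and S9 (6.83) did not. Hand2, which fibroblasts also express, was highest in TKO1 (87.1 CPM, r = 0.31). Cldn15, a claudin, was nearer to Wt1 (r = 0.75) than to the member mean (r = 0.61).

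**Figure D5:**
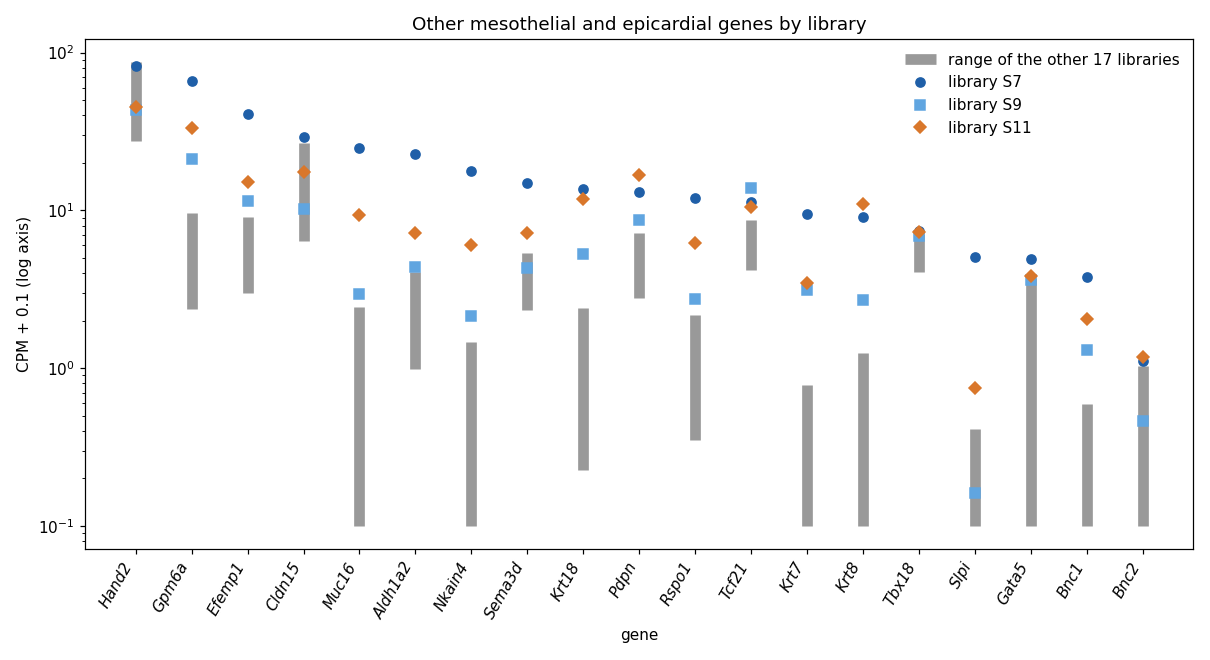
CPM of 19 other mesothelial and epicardial genes (vertical axis, logarithmic, with 0.1 added) in S7, S9 and S11 (points) beside the range of the other 17 libraries (grey bars), with genes on the horizontal axis. For 12 genes all 3 points lie above the bar, and for Hand2 they lie within it.

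In the tests, 0 of 18 genes of that list were called in the libraries labelled male (2.09% of all genes, 14 below 0, median -0.46, against -0.01 over all genes) and 1 of 15, lower, in those labelled female (9.99% of all genes, 6 below 0, median 0.09, against -0.02). For KO against WT over all libraries 0 of 18 were called (2.40% of all genes, median 0.11), and for the genotype by labelled sex term 1 was called above 0 and 2 below (11.3% of all genes in either direction, median -0.98). For the WT/TKO series against the S series, 16 genes of the list were counted outside S7, S9 and S11. Only this choice of genes left S7, S9 and S11 out, and the fit kept them. Of the 16, 5 were called lower and 0 higher, where 7.63% of the 14888 genes chosen in the same way were called lower. All 16 were below 0 (median -0.81, against 0.00531 over those genes). Values of the list from a fit without S7, S9 and S11 are not given. Those called lower were Krt18 (-2.44 ± 0.63, SE, adjusted p = 0.0134, edgeR), Krt8 (-2.79 ± 0.84, adjusted p = 0.0314), Pdpn (podoplanin, -0.92 ± 0.24, adjusted p = 0.0133), Rspo1 (a secreted WNT agonist, -1.68 ± 0.59) and Gata5 (-2.45 ± 0.87). The last 2 had an adjusted p of 0.0601 and 0.0617.

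Uroplakins of the bladder lining were low. Upk1a, Upk2, Upk3a and Upk3bl summed to at most 3.16 CPM in any library, and to 0.738 CPM in S7. Surfactant and club cell genes of lung epithelium summed to at most 1.69 CPM (4 of 6 were in the table), with 0.134 CPM in S7. Epcam, Cdh1, Krt5, Krt14 and Cldn4, genes of general epithelium, summed to 4.02 CPM in S7, of which Krt14 was 3.42. They summed to 2.16 CPM in S11, 0.907 in S9 and at most 0.744 elsewhere, so the same libraries were on top at low levels.

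Genes of other tissues were summed for the same libraries. The 9 adipocyte genes summed to 1533 CPM in S7, 63.8 in S9 and 31.5 in S11, and to 0.747 to 41.4 CPM elsewhere (median over all libraries 8.35). Adipoq itself was 6.11 times its median over the other 17 libraries in S11, 14.8 times in S9 and 591 times in S7. That median is near the floor, at 0.188 CPM, and S11 (1.15 CPM) lay within the range of those libraries (0 to 1.85 CPM). Bmp10, a secreted factor of atrial muscle, was at 2080 CPM in S7 and 1157 in S9 and at 0.0719 in S11. The 6 genes of ventricular cardiomyocytes summed to 6181 CPM in S7, 9221 in S11 and 10067 in S9, below the 12023 to 18583 CPM of the other libraries. Myl2 and Myl3 made up 85.4% to 99.2% of that sum, and not every gene of the list was low there: Myh7, the slow myosin heavy chain, was at 879 CPM in S7, 123 in S9 and 119 in S11 and at 82.5 to 213 elsewhere, and Hey2, a transcription factor of ventricular muscle, was highest in S9 (9.31 CPM). Fibroblast genes summed to 1583, 1383 and 1522 CPM in S7, S11 and S9 and to 961 to 1517 elsewhere. Endothelial genes summed to 1045, 1205 and 1235 CPM there and to 831 to 1380 elsewhere, and smooth muscle genes to 354, 299.9 and 363 CPM there and to 156 to 353 elsewhere. The endothelial sum hides 2 of 5 genes, Pecam1 and Emcn, for which S7, S9 and S11 all lay above the other libraries. Emcn had 107, 156 and 169 CPM in S7, S11 and S9 and at most 76.8 elsewhere. Cdh5, Kdr and Tie1 did not follow, and Kdr was lowest in S7 (97.6 CPM). Thymus and lymphocyte genes summed to 9.12 CPM in S7 and at most 5.61 elsewhere, and red blood cell genes were lowest in S7 (28.4 CPM) and highest in S11 (1782 CPM). The part of these in the members' levels was not tested.

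Of 15181 other genes that reached 10 counts in 3 or more libraries, 72 had an r over 0.8 with the member mean. The 10 highest were Cyp2s1 (0.95), Abcc8 (0.93), Gpm6a (0.93), Muc16 (0.93), Gpc3 (0.93), Tmem119 (0.93), Slc39a8 (0.92), Chst4 (0.91), Cdh3 (0.90) and Tat (0.89). Cyp2s1, a cytochrome P450, was at 24.1 CPM in S7, 12.2 in S11 and 4.05 in S9 with a median of 1.14 over all libraries, and its r was 0.90 without those 3. Abcc8, a subunit of potassium channels gated by ATP, had 86.9, 57.3 and 43.9 CPM there with a median of 33.3, and its r was 0.79 without them. At the other end were Rpl3l (-0.92), a ribosomal protein of striated muscle, 2310040G24Rik (-0.92), Cox14 (-0.91), Myl3 (-0.90), the essential light chain of ventricular myosin, and Rbfa (-0.90). Myl3 was at 2416 CPM in S7 against a median of 6041.

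Since Wt1 had other libraries on top, the genes most like it were also listed, a choice made after its values were seen. Of 15186 genes, 30 had an r over 0.8 with Wt1 over the 20 libraries. Sash1 (0.91), Irak2 (0.90), Sik1 (0.88), Smchd1 (0.86), Slc36a4 (0.86) and Fosl2 (0.85) led the list, and none of them was among the 10 nearest to the member mean. Sik1, a salt-inducible kinase, was highest in TKO2 at 308 CPM with a median of 89.3, and Fosl2, an AP-1 transcription factor, was at 238 CPM in TKO2 and 222 in S7 with a median of 95.4. Without S7, S9 and S11 the r of Sash1 was 0.92 and that of Fosl2 0.85.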

How the data were processed

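Poly(A) RNA of mouse heart was sequenced in 20 libraries (per the labels, HISAT2, HTSeq 0.6.1p2 and DESeq2 1.26.0 are among the submitters' tools, on GRCm38). The authors deposited raw counts of reads for each of 29339 genes and library, and the FPKM they computed from them. The study's methods give 3 mice per group and the table holds 20 libraries, and nothing ties libraries to animals beyond the labels, so p-values measure the spread between libraries. Strandedness of the counting is not given in the sources used here. The members and lists were chosen with earlier results of these data known. Counts were fitted with edgeR 4.0.16 (TMM, quasi-likelihood test, at least 10 counts in at least 3 libraries fitted, Benjamini-Hochberg over all genes, library series as covariate), by labelled sex and over all 20 libraries (4 groups and series). The 44 pairs of libraries within groups all differed by more than counting noise (0 were identical). CPM were scaled by TMM, and the SE of a log2 fold change is its size over the root of edgeR's F. Coordinates are those of GENCODE M21. The genes named are the 6 members, Myl7, Adipoq, Tecrl, sex-linked genes, genes of the lists where a value is given, and the 10 highest and 5 lowest by r with the member mean, and the genes nearest to Wt1 were named after its values were seen. Alternatives were DESeq2 1.42.0, limma 3.58.1 on log2(FPKM + 1), other filters and scaling, Myl7, Adipoq or Y-linked covariates, and left-out libraries. On simulated counts with 200 genes changed 4-fold, edgeR recovered 100% in the male comparison with 10 false calls among 14340 genes. Every simulated gene had the same set spread and no library stood apart, so this does not give the power for the members. Among them, Lrrn4 at -2.38 ± 1.23 (SE) was not called in the male libraries. Software was R 4.3.3, Python 3.11.15 with scipy 1.17.1, and matplotlib 3.10.9 for the figures.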

Additional observations from a re-analysis of the deposited data

Results flagged for a closer look

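By Dixon's test at the 95% level, 11 of 24 groups of 4 to 10 libraries held a library far from the others, where chance gives about 1 in 20 if groups are independent. These groups are not, since the genes were chosen for varying together and all 11 flags are S7 or S11, so that rate is no yardstick here. Among the libraries labelled male WT, S7 was apart for Upk3b (197.051 CPM, the next library at 23.6), Upk1b (33.9258 CPM, next 6.04), Msln (67.5163 CPM, next 16.9), Lrrn4 (33.3223 CPM, next 2.84), Krt19 (16.6947 CPM, next 4.53) and Adipoq (111.298 CPM, next 2.78). Among those labelled male KO, S11 was apart for Upk3b (40.1074 CPM, next 5.74), Upk1b (8.1221 CPM, next 0.652), Msln (48.3013 CPM, next 2.87), Lrrn4 (5.39077 CPM, next 0.261) and Krt19 (12.4347 CPM, next 1.11). Wt1 was apart in 0 groups. The groups of 3 libraries labelled female WT were not tested.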

How the results depend on the processing

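No paired analysis was possible because the groups compared share no animal or batch by their replicate numbers, which were given in accession order. Members called were 0 in each genotype comparison and 2 in the series comparison. The share of all genes called under each setting follows its count. With no filter on low counts they were 3 (male, 3.13%), 4 (female, 8.20%), 3 (genotype by labelled sex, 9.59%) and 5 (series, 12.5%). With Myl7 as covariate they were 3 (male, 2.68%), 3 (KO against WT over all libraries, 3.31%) and 0 (series, 6.33%), and with Adipoq 0 (series, 11.4%), but the members were chosen by covariation with Myl7 and Adipoq, so these fits are descriptions and test nothing. The Y-linked covariate gave 3 (KO against WT, 3.24%) and 5 (series, 14.0%), and could not be fitted for the female comparison, where it follows label and series. DESeq2 gave 1 (genotype by labelled sex, 12.1%) and 5 (series, 13.6%), and at least 10 counts in every library gave 0 of the 1 member tested (series, 7.70%). S-numbered libraries alone gave 1 (male, 2.68%) and 1 (KO against WT, 3.29%). Without the libraries against their sex label the counts were 3 (KO against WT, 3.76%), 1 (genotype by labelled sex, 4.13%) and 5 (series, 10.2%). With 1 library left out the counts ran from 0 to 4 (male, 4 without S11, 2.02%), 0 to 2 (female, 2 without S5, 8.60%), 0 to 1 (KO against WT, 1 without library WT1, 3.06%), 0 to 5 (genotype by labelled sex, 5 without S11, 11.6%) and 2 to 5 (series, 5 without S4, 13.8%, or S6, 11.9%, and 4 without S5, 13.2%).

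Male log2 fold changes turned sign with Adipoq as covariate for Upk3b (0.53), Upk1b (0.066), Msln (0.64), Lrrn4 (0.27) and Krt19 (0.44), with the Y-linked covariate for Upk3b (0.055), Msln (0.0548) and Wt1 (0.44), and without the libraries against their sex label for Msln (0.00734) and Wt1 (0.44). With 1 library left out they ran from -2.97 to 0.13 for Upk3b, from -2.30 to 0.45 for Msln and from -3.12 to 0.23 for Krt19, each highest without S7 and lowest without S11. Female values turned for Upk3b (0.28), Msln (0.16) and Wt1 (0.42) without those libraries, and for Wt1 with Myl7 (0.0397) or Adipoq (0.28) as covariate or no series covariate (0.0169). Series values turned with Myl7 as covariate for Upk3b (1.70), Upk1b (0.41), Msln (0.91) and Lrrn4 (1.57), with Adipoq for Upk3b (0.23) and Lrrn4 (0.48), and without S7, S9 and S11 for Lrrn4 (0.012).

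The r of the member mean with Myl7 (0.51) was 0.16 without the 2 farthest libraries, -0.14 in the WT/TKO series, 0.28 in KO and 0.81 in WT libraries, and -0.14 without S7, S9 and S11, and with 1 library left out it ran from 0.37 to 0.59. With Adipoq (0.66), rho was 0.28, and r was 0.15 without the 2 farthest, 0.00489 in the WT/TKO series, 0.11 in KO and 0.89 in WT libraries and -0.0586 without S7, S9 and S11, and ran from 0.31 to 0.71 with 1 library left out. Without Wt1 in the mean, r was 0.63 with Myl7 and 0.73 with Adipoq. Genes called over all settings ran from 52 to 852 (male), 526 to 2954 (female), 46 to 1015 (KO against WT), 609 to 3068 (genotype by labelled sex) and 616 to 3657 (series). Depth limits Lrrn4, Krt19 and Upk1b, which had 3 or fewer counts in 5, 3 and 2 libraries. The cause of these moves was not tested.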
